A study of Macaca mulatta with 161 samples.

Results

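SPIC, TMEM176B, ATP6V0D2, TYROBP, MPEG1 and CD53 are 6 genes best known from macrophages and related blood cells, and they were read here in the inner cells of rhesus monkey (Macaca mulatta) blastocysts. They were picked by symbol from 16049 genes in the deposited table, with their levels in these cells already known, so their stage patterns are given as a description. The series holds 161 single cells, 1 library each: 44 from early blastocysts (about embryonic day 5), 39 from middle blastocysts (about day 5.5), 52 from late blastocysts (about day 6) and 26 from hatching blastocysts (about day 7). All embryos came from oocytes of females stimulated with recombinant FSH and chorionic gonadotropin, were fertilised and were grown in HECM-9 medium with serum. All cells were taken as inner cells because they did not carry PKH26, a red membrane dye put on the outer cells of the intact embryo. No label names the embryo or the mother of a cell, so each stage counts as 1 sample, cells are not replicates, and no difference could be tested.

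A blastocyst encloses an inner cell mass from which epiblast, the source of the embryo proper, and primitive endoderm, the source of the yolk sac lining, arise. NANOG is a transcription factor kept on in epiblast, and SOX17 is one switched on in primitive endoderm. The 6 genes cover separate parts of macrophage biology. SPIC is an ETS-family transcription factor that mice need to make the splenic macrophages that recycle iron from red blood cells, and in mouse embryonic stem cells it has been tied to choline and methionine metabolism. TMEM176B is a membrane protein related to the MS4A family. ATP6V0D2 is a subunit of the membrane-bound part of the vacuolar proton pump, used by mouse osteoclasts. TYROBP, also called DAP12, is an adaptor that passes signals from receptors such as TREM2 through its ITAM motif. MPEG1, or perforin-2, is a pore-forming protein with a MACPF domain that damages engulfed bacteria, and CD53 is a tetraspanin of white blood cell membranes.

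Levels are FPKM, which are scaled to transcript length and to the mapped reads of a cell, so that genes can be set side by side. Every mean and difference below was taken on log2(FPKM + 1); adding 1 makes differences of low genes look smaller than they are. A gene was counted as detected in a cell at an FPKM of at least 1. Whole reads recovered from the steps of the low values came to 2.97 to 18.9 M (mega) per cell, the median being 11.2 M, and stage medians of 10.6, 12.1, 10.5 and 11.1 M in early, middle, late and hatching cells. The median number of genes at an FPKM of 1 was 7019.5, 7094, 6962 and 6713.5 in the same order of stages. At this depth 1 read of SPIC was worth 0.0838 FPKM in the median cell, so a level of 1 FPKM lay well above a single read there. The margin was smaller elsewhere: 1 read of SPIC was worth up to 0.317 FPKM. For TYROBP it was 0.141 FPKM in the median cell and up to 0.534 FPKM. One early cell stood apart, with the lowest NANOG of its stage at 6.45 FPKM, the lowest SPIC, ATP6V0D2 at 1.14 FPKM and 5873 genes detected.

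SPIC, TMEM176B and ATP6V0D2 shared one course: they were high in nearly all early and middle cells, mixed in late cells and at or near 0 in most hatching cells. TYROBP was mixed in early cells, high in most middle cells and low in most later ones. MPEG1 and CD53 stayed high in many cells at every stage, and MPEG1 separated into a high and a low set of cells in the late and hatching stages. The median cell had 5, 6, 4 and 2 of the 6 genes detected at the early, middle, late and hatching stages, and all 6 were detected in 18 of 44 early, 26 of 39 middle and 6 of 52 late cells. In hatching cells the highest number was 5, in 1 cell.

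**Figure D1:**
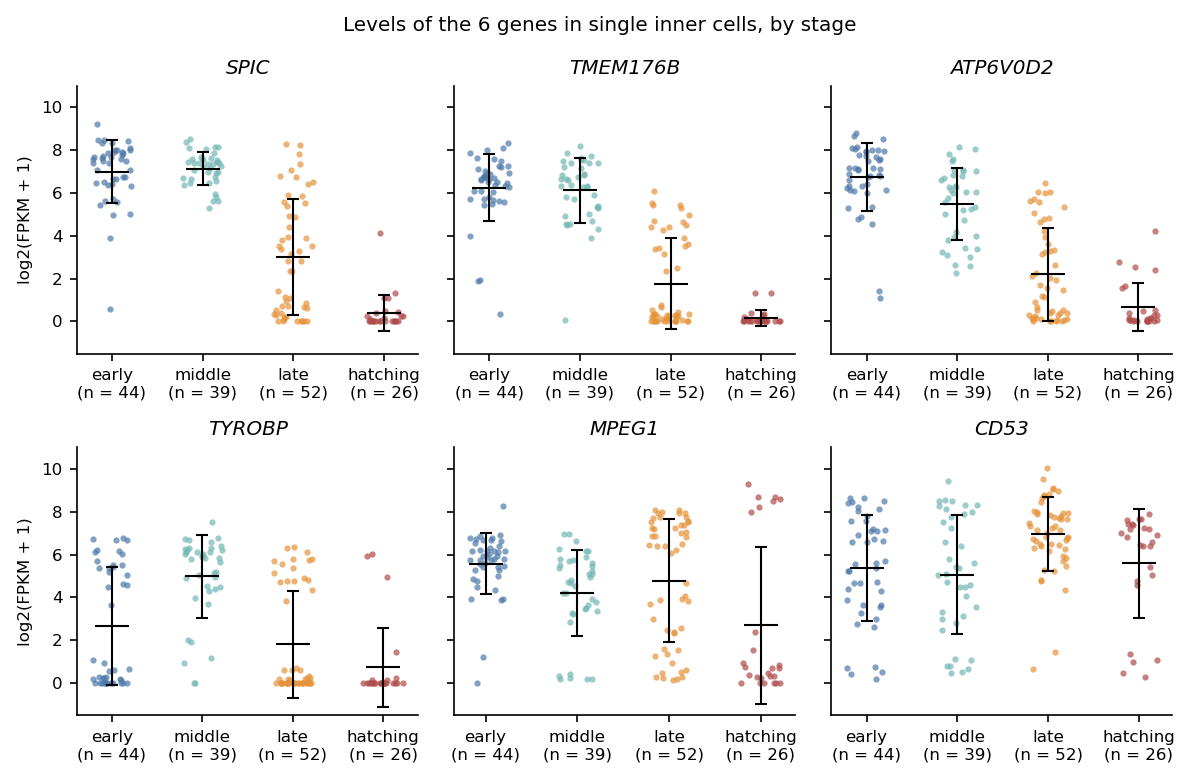
Each point is 1 cell, the vertical axis is log2(FPKM + 1), and black bars give the mean and SD over the cells of a stage, from early on the left to hatching on the right. SPIC had a mean of 7.0 in early cells and 0.38 in hatching cells, while CD53 stayed between 5.07 and 6.95 at every stage.

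SPIC, the transcription factor, lay between 0.47 and 593 FPKM in early cells with a median of 180. In middle cells the lowest, median and highest levels were 38.8, 163 and 367 FPKM. In late cells they were 0, 6.04 and 313 FPKM. In hatching cells they were 0, 0 and 16.5 FPKM. All middle cells exceeded every hatching cell, early and hatching cells overlapped only through a few cells at either end, and late cells covered nearly the whole span. SPIC was detected in 43 of 44 early, 39 of 39 middle, 32 of 52 late and 4 of 26 hatching cells, the last being 15.4% with an exact 95% interval of 4.36% to 34.9%. Such intervals cover counting error over cells only, and PCR reads without molecular identifiers are not independent molecules. The mean level was 0.38 ± 0.85 (SD over 26 cells) in hatching cells and 7.0 ± 1.49 (SD over 44 cells) in early cells, a difference of -6.62. Of 9781 genes with a mean of at least 1 FPKM, 2 had a difference at least this low, SPIC among them. Most of it lay between the middle and late stages, where late minus middle was -4.13, against 0.14 for middle minus early and -2.63 for hatching minus late.

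TMEM176B, the MS4A-related membrane protein, had lowest, median and highest levels of 0.25, 98.2 and 320 FPKM in early cells and 0.06, 82.1 and 293 FPKM in middle cells. Late cells had 0, 0.27 and 67.2 FPKM, and hatching cells 0, 0 and 1.52 FPKM. Thus the median late cell was already below detection, although 15 of 52 late cells still had at least 10 FPKM. The mean was 0.16 ± 0.36 in hatching cells and 6.25 ± 1.58 in early cells, a difference of -6.09, with late minus middle at -4.37. TMEM176A, the gene that overlaps TMEM176B in the RefSeq annotation of assembly T2T-MMU8v2.0, was detected in 5 of 161 cells, all of them middle cells that also had TMEM176B. The tables do not say whether counting used strand, so reads of the shared stretch cannot be assigned, but TMEM176A stayed at or below 14.4 FPKM.

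ATP6V0D2, the proton pump subunit, had lowest, median and highest levels of 1.14, 137 and 441 FPKM in early cells and 3.78, 63.4 and 286 FPKM in middle cells. Late cells had 0, 1.89 and 86.1 FPKM, and hatching cells 0, 0.12 and 17.8 FPKM. It was detected in all 83 early and middle cells, in 29 of 52 late cells and in 6 of 26 hatching cells. Its mean was already lower in middle than in early cells, at 5.49 ± 1.70 and 6.74 ± 1.59, a difference of -1.25, and late minus middle added -3.28. Within the early stage it differed by the number in the cell titles: cells numbered 29 and up averaged 7.57 ± 0.75 (19 cells) and those numbered up to 28 averaged 6.11 ± 1.78 (25 cells). What the numbers stand for is not given, and their part in the stage difference was not tested. Middle minus early was -0.63 without the early cells numbered 29 and up and -2.08 without those numbered up to 28.

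TYROBP, the ITAM adaptor, was either clearly present or nearly absent. Its lowest, median and highest levels were 0, 0.74 and 109 FPKM in early cells, 0, 56 and 185 FPKM in middle cells, 0, 0.13 and 81.7 FPKM in late cells and 0, 0 and 64.1 FPKM in hatching cells. Early cells split into 20 with at least 10 FPKM, 1 between 1 and 10, and 23 under 1. Late cells did the same, with 17 at 10 FPKM or more and none between 1 and 10. The mean was 4.97 ± 1.93 in middle cells and 2.66 ± 2.77 in early cells, a difference of 2.31, and 3 of 9781 genes were at least this much higher. Late minus middle was -3.17 and hatching minus early was -1.94. TYROBP was detected in 36 of 39 middle cells (92.3%, exact 95% interval 79.1% to 98.4%), against 21 of 44 early cells (47.7%, 32.5% to 63.3%).

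MPEG1, the pore-forming protein, had lowest, median and highest levels of 0, 56.8 and 304 FPKM in early cells and 0.12, 25.2 and 124 FPKM in middle cells. Late cells had 0.10, 77.5 and 266 FPKM, and hatching cells 0, 0.62 and 617 FPKM. The highest MPEG1 levels of the series were therefore in hatching cells, where 5 of 26 exceeded the highest early cell although the median was below detection. Means hide this split: hatching minus early was -2.89 as a mean of log2 levels (2.68 ± 3.68 in hatching and 5.58 ± 1.42 in early cells) but 0.72 as the log2 of the mean FPKM. All 7 hatching cells over 10 FPKM had title numbers of 18 or less, so the mean was 5.45 for the 12 hatching cells in that number range and 0.31 for the 14 with higher numbers.

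CD53, the tetraspanin, was above 0 in all 161 cells and detected in 147. Its lowest, median and highest levels were 0.15, 46.7 and 400 FPKM in early cells, 0.36, 33.1 and 692 FPKM in middle cells, 0.56, 140 and 1056 FPKM in late cells and 0.20, 104 and 239 FPKM in hatching cells. The groups overlapped throughout. The mean was 6.95 ± 1.75 in late cells and 5.07 ± 2.77 in middle cells, a difference of 1.89, and 64 of 9781 genes were at least this much higher. CD53 also moved with the title numbers inside every stage: means for lower and higher numbers were 5.99 and 4.55 in early, 4.62 and 6.08 in middle, 7.93 and 6.24 in late and 3.70 and 7.20 in hatching cells. In hatching cells the number ranges lay farther apart than any pair of stages, and their part in the stage differences was not tested. Hatching minus late was -1.37 with all cells and 0.25 without the hatching cells numbered up to 18.

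Counted at 1 log2 unit, 5 of the 6 genes were lower in hatching than in early cells, beside 16.2% of the 9781 genes, and none was higher, beside 11.3%. In middle against early cells TYROBP was higher, beside 3.06% of genes, and ATP6V0D2 and MPEG1 were lower, beside 3.61%. In late against middle cells CD53 was higher, beside 3.95%, and SPIC, TMEM176B, ATP6V0D2 and TYROBP were lower, beside 5.82%. In hatching against late cells all 6 were lower, beside 9.87% of genes, and none was higher, beside 7.26%. SPIC alone of the 6 passed 1 log2 unit there in all 10 alternatives computed; TMEM176B and ATP6V0D2 did so in 8, MPEG1 in 7 and TYROBP and CD53 in 6, with TYROBP reaching -0.17 between median cells. The sign was the opposite in 2 of these alternatives for MPEG1 and in 1 for CD53. In hatching against early cells TYROBP and MPEG1 passed in 8 of 10, and MPEG1 had the opposite sign in 1. Because the genes were picked with these stage levels known, the shares are a background and no evidence about the genes. The median difference of all genes was -0.12 for hatching minus early and lay between -0.14 and 0.20 in every stage contrast under each scaling tried.

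How the 6 genes lay relative to NANOG and SOX17 was read from 3 ranges. In the first, SOX17 was detected and at or above NANOG; in the second, both were detected with NANOG above; in the third, NANOG was detected without SOX17. The ranges are cuts on a pair of genes within 1 sample and not cell types. All 44 early and 39 middle cells were in the second or the third range, with 6 and 10 cells having both. Late cells comprised 19 with SOX17 above NANOG, 9 with both and 24 with NANOG without SOX17, and 3 of the 52 lay within 1 log2 unit of equal levels. Hatching cells comprised 7, 2 and 17 in the same order, with none that near. All 7 hatching cells with SOX17 above NANOG had title numbers up to 18, as did only 3 of the 17 with NANOG without SOX17, so number and range can hardly be told apart there. These 7 cells also had fewer genes detected (median 5680 against 7002) and fewer reads (9.09 M against 13 M), and the part of either in the results was not tested.

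MPEG1 followed this divide most closely of the 6 genes. In late cells its lowest, median and highest levels were 66.8, 165 and 266 FPKM with SOX17 above NANOG, against 0.096, 3.05 and 116 FPKM with NANOG without SOX17. Only 1 of the 24 cells with NANOG without SOX17 reached the lowest of the 19 with SOX17 above NANOG. The means were 7.30 ± 0.60 with SOX17 above NANOG and 2.15 ± 1.80 with NANOG without SOX17, a difference of 5.15, and 11 of 9781 genes had a difference at least as high. The 9 cells with both genes lay near the SOX17 side, at 6.51 ± 2.03.

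In hatching cells the gap was complete. MPEG1 had lowest, median and highest levels of 251, 384 and 617 FPKM in the 7 cells with SOX17 above NANOG, against 0, 0.23 and 0.89 FPKM in the 17 cells with NANOG without SOX17. The ranges did not overlap, and the 2 cells with both genes lay between them at 1.94 and 4.25 FPKM. The means were 8.56 ± 0.41 with SOX17 above NANOG and 0.35 ± 0.33 with NANOG without SOX17, a difference of 8.22, while the median over all genes was -0.47. MPEG1 was not tied to SOX17 earlier: in early cells without SOX17 it was detected in 97.4% (exact 95% interval 86.2% to 99.9%, 38 cells), and in middle cells without SOX17 in 86.2% (68.3% to 96.1%, 29 cells). Inside a range the relation of the levels of MPEG1 and SOX17 varied. Pearson's r over late cells was 0.21 with SOX17 above NANOG (n = 19) and 0.10 with NANOG without SOX17 (n = 24). Over hatching cells it was 0.01 with SOX17 above NANOG (n = 7), and 0.68 (Spearman's rho 0.82) with NANOG without SOX17 (n = 17). Both genes were under 1 FPKM in every one of these 17 cells. The same 6 cells, with title numbers from 37 to 45, were at 0 for both genes, and the rest had traces of both. The last r was 0.78 without the 2 cells farthest from the median of SOX17, which were not among these 6. This r thus sets a run of title numbers at 0 against cells with traces, and the part of the numbers was not tested.

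**Figure D2:**
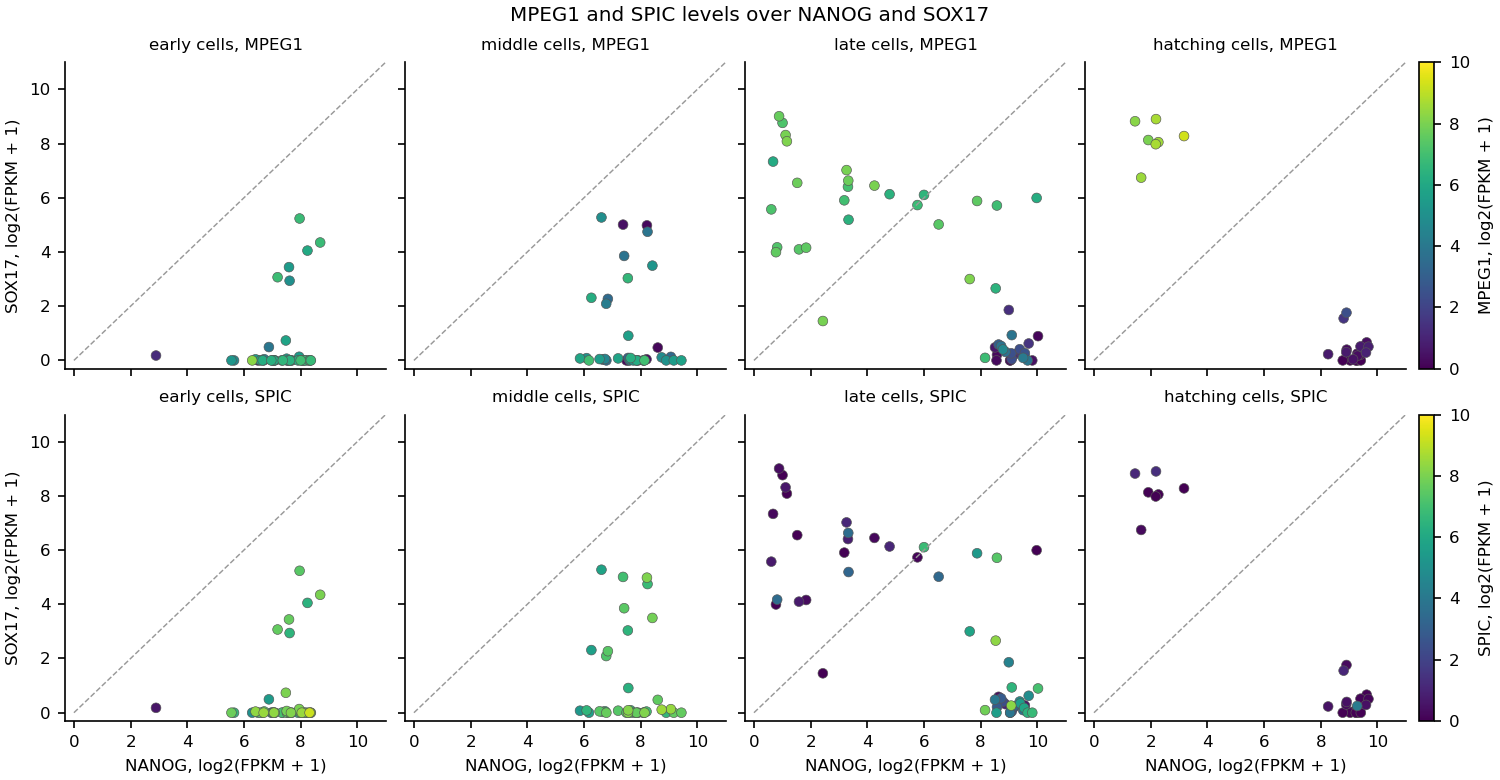
Each point is 1 cell placed by NANOG (horizontal) and SOX17 (vertical), both as log2(FPKM + 1), with 1 panel per stage; colour gives MPEG1 in the upper row and SPIC in the lower row, and the dashed line marks equal levels. In the hatching panels the 7 cells above the line had 251 to 617 FPKM of MPEG1 and at most 1.54 FPKM of SPIC.

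SPIC leaned the other way in late cells. Its lowest, median and highest levels were 0, 0.55 and 111 FPKM with SOX17 above NANOG, against 0.30, 14.1 and 306 FPKM with NANOG without SOX17. The groups overlapped widely, yet SPIC was detected in 6 of 19 cells (31.6%, exact 95% interval 12.6% to 56.6%) against 20 of 24 (83.3%, 62.6% to 95.3%). The means were 1.23 ± 1.80 with SOX17 above NANOG and 4.11 ± 2.41 with NANOG without SOX17, a difference of -2.88. In hatching cells SPIC was near 0 on both sides, with a difference of 0.04, and the cells with high NANOG mostly lacked it. Of the 17 hatching cells with NANOG without SOX17, where NANOG lay between 306 and 822 FPKM, 1 had SPIC detected, while in late cells of that range, with NANOG between 284 and 1039.8 FPKM, it was the 20 of 24 above.

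TYROBP was detected in 2 of 19 late cells with SOX17 above NANOG, against 10 of 24 with NANOG without SOX17, and the means differed by -1.59, but by -0.23 between median cells. In hatching cells it was detected in 0 of 7 with SOX17 above NANOG and in 4 of 17 with NANOG without SOX17. That difference of -1.06 rested on these 4 cells and was 0 between median cells. In late cells TMEM176B and ATP6V0D2 differed by -0.89 and -0.70, less than the SD within either range. In hatching cells these differences were 0.18 and -0.57. ATP6V0D2 stood out in the 9 late cells with both NANOG and SOX17, where all had it and the lowest, median and highest levels were 1.98, 32.9 and 86.1 FPKM. Of these 9 cells 7 had title numbers above 24. Late cells with such numbers averaged 2.67 ± 2.34 for ATP6V0D2, against 1.58 ± 1.78 for lower numbers, and the part of the numbers was not tested. CD53 was alike in late cells of both ranges, with medians of 159 and 156 FPKM and a difference of -0.39. In hatching cells it was lower with SOX17 above NANOG, at 0.20, 1.52 and 84.6 FPKM (lowest, median, highest) against 0.37, 146 and 239 FPKM with NANOG without SOX17, a difference of -3.89.

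Within the late stage 1 of the 6 genes was at least 1 log2 unit higher with SOX17 above NANOG, beside 9.58% of 9781 genes, and 2 were lower, beside 9.96%. Within the hatching stage 1 was higher, beside 14.2%, and 2 were lower, beside 34.2%, so lower levels were common among all genes there. TYROBP, counted as lower at both stages, passed 1 log2 unit in 7 of 10 alternatives in late and 5 of 9 in hatching cells. Dividing cells by the mean of 13 epiblast against 14 primitive endoderm markers, in place of NANOG and SOX17, put 22 late and 7 hatching cells on the endoderm side. They included all 19 late and all 7 hatching cells with SOX17 above NANOG, and MPEG1 then differed by 4.34 and 8.05 and SPIC by -2.69 and 0.00 in late and hatching cells. The small CD53 difference in late cells was 0.11 with that division, the opposite sign.

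**Figure D3:**
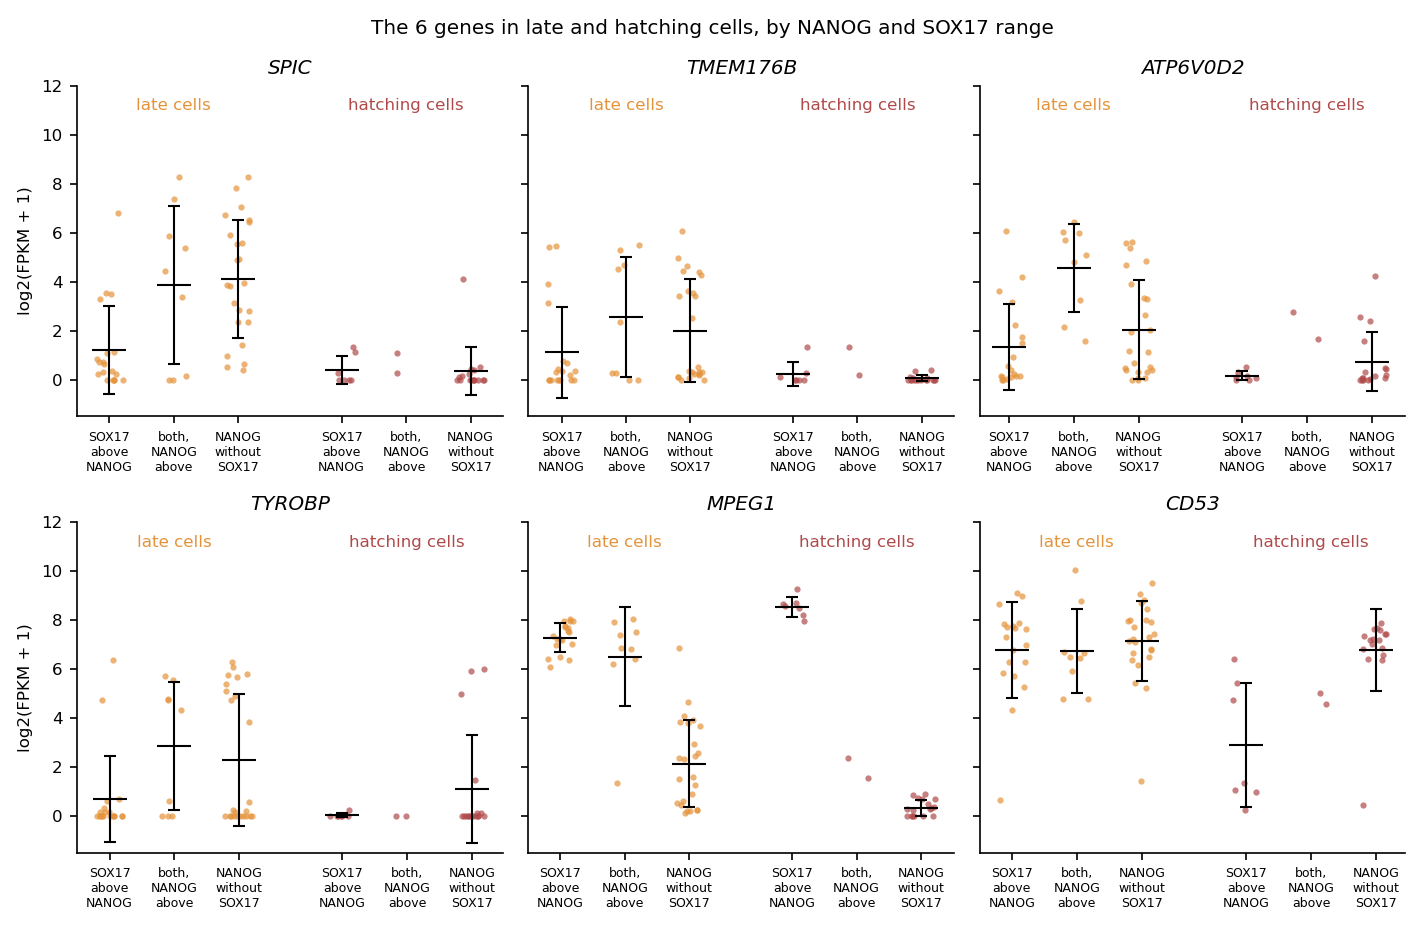
Each point is 1 late (orange) or hatching (red) cell, the vertical axis is log2(FPKM + 1), and bars give mean and SD for ranges of more than 2 cells. MPEG1 had means of 7.30 and 8.56 in late and hatching cells with SOX17 above NANOG, against 2.15 and 0.35 in cells with NANOG without SOX17.

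Correlations over cells share libraries, depth and unknown embryos, and are given as a description without p-values. Over the 39 middle cells SPIC and NANOG had r = 0.59 (Spearman's rho 0.53), with 0.59 in each of the lower and higher number ranges and 0.53 without the 2 cells farthest from the median of NANOG. Over the 44 early cells r was 0.56 but rho 0.30, and r was 0.23 without the 2 cells with the farthest NANOG levels, so the early value rested on them; the cell that stood apart was one. ATP6V0D2 ran the other way in middle cells, with r = -0.47 and rho = -0.45 (n = 39), and -0.46 and -0.51 in the lower and higher number ranges. MPEG1 and NANOG had r = 0.57 and rho = 0.51 in early cells (n = 44), and r = 0.39 without the 2 farthest. In late cells SPIC and NANOG had r = 0.56 over the 19 cells with SOX17 above NANOG, which was 0.27 without the 2 farthest, and 0.23 over the 24 cells with NANOG without SOX17.

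SPIC, TMEM176B and ATP6V0D2 were detected together in 42 of 44 early, 38 of 39 middle, 14 of 52 late and 1 of 26 hatching cells. Late cells were thus spread over all combinations, with 12 having none of the 3, 13 having 1 and 13 having 2. Over late cells SPIC and TMEM176B had r = 0.54 (n = 52), with 0.54, 0.58 and 0.45 in the 3 ranges and 0.44 and 0.58 in the lower and higher number ranges. SPIC and ATP6V0D2 had r = 0.44, which was -0.14 over the 22 late cells with lower numbers and 0.70 over the 30 with higher numbers, so that link held in one number range only. In middle cells TYROBP and CD53 had r = -0.40 (n = 39), with -0.27 and -0.48 in the lower and higher number ranges. It was -0.76 over the 10 middle cells with both NANOG and SOX17 and -0.23 over the 29 with NANOG without SOX17.

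Macrophages were looked for with 34 marker genes, of which 30 had a row. None of the markers AIF1, ITGAX, CX3CR1, C1QA, C1QC, MARCO, MRC1, LAPTM5, VSIG4 and SIGLEC1 reached 1 FPKM in any of the 161 cells, and CX3CR1, C1QA, C1QC and MARCO were at 0 throughout. In all, 19 of the 30 were detected in under 10% of cells. SPI1, the PU.1 factor that directs macrophage formation and a relative of SPIC, was detected in 27 of 161 cells and never above 22.6 FPKM. CSF1R, the receptor for the macrophage growth factor, was detected in 18 cells, 13 of them middle cells. The summed level of the list ranged from 6.74 to 158 FPKM in early, 4.13 to 243 in middle, 10.8 to 187 in late and 0.0883 to 219 FPKM in hatching cells, with medians of 59, 51.3, 54.9 and 28.9 FPKM. Most of it was FCGR2B, an inhibitory antibody receptor, without which the medians were 18.4, 21.6, 18.3 and 9.87 FPKM. MERTK, a receptor used to engulf dying cells, was the other marker detected in at least 50% of the cells of a stage, in 32 of 52 late and 21 of 26 hatching cells. Other markers of the list were found in a minority of cells: LYZ in 38 (up to 104 FPKM), CD68 in 35, CSF3R in 28, CD163 in 25, FCER1G in 22 (up to 136 FPKM) and CD14 in 21. LYZ was detected in 13 of 44 early and 13 of 39 middle cells, and CD68 in 14 and 9. The part of any marker in the levels of the 6 genes was not tested, and the name macrophage-linked is used here only for where the genes are known from.

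**Figure D4:**
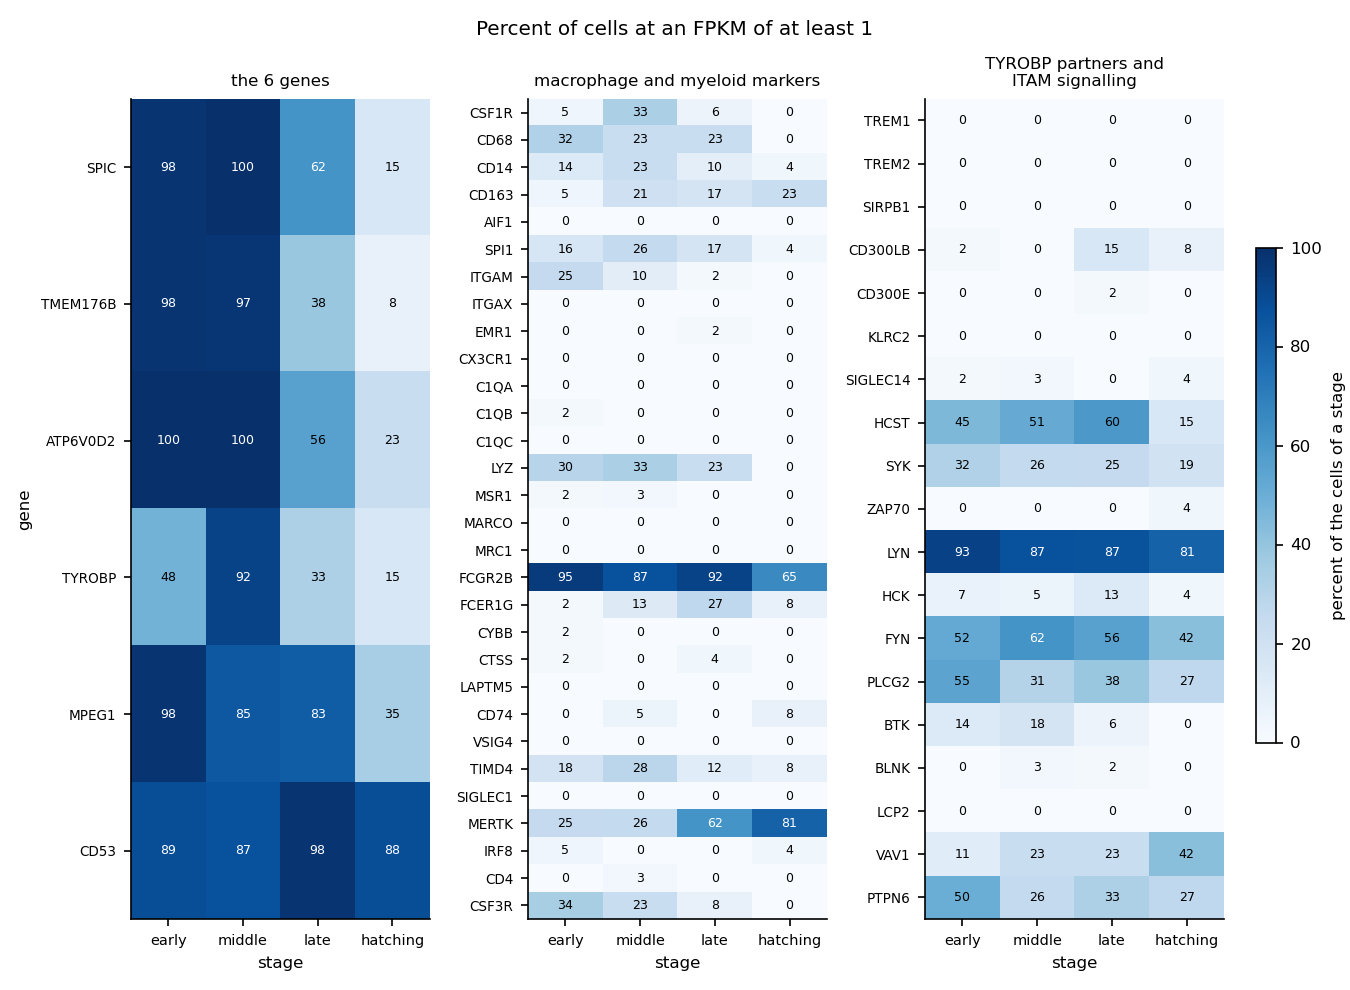
Colour and number give the percent of cells of each stage with an FPKM of at least 1, for the 6 genes, 30 macrophage and myeloid markers and 19 further genes of ITAM signalling. Each of the 6 genes was detected in at least 92.3% of the cells of one stage, while AIF1, CX3CR1, C1QA and TREM2 were detected in none.

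Most receptor partners of TYROBP that had a row were rare or missing. TREM1, TREM2, SIRPB1 and KLRC2 were at 0 in all 161 cells, so the 78 cells with TYROBP had no recorded level of these receptors. The annotation used is not given, so a gene that could not be counted cannot be told from a silent one. CD300LB was detected in 11 cells (up to 51.1 FPKM), SIGLEC14 in 3 and CD300E in 1, and CLEC5A was not analysed here. HCST, the adaptor gene that lies next to TYROBP in the RefSeq annotation, was detected in 75 cells, but the pair did not keep company in a fixed way: both were detected in 8 of 44 early, 20 of 39 middle, 15 of 52 late and 2 of 26 hatching cells. In late cells 16 had HCST alone and 2 had TYROBP alone. The kinase SYK, which binds the ITAM, was detected in 42 of 161 cells. LYN, a Src-family kinase, was in 141, with means of 3.96, 3.07, 2.72 and 3.25 at the early, middle, late and hatching stages. FYN and PLCG2 were detected in 23 and 24 of 44 early cells. Of 9 genes of the ITAM list at a mean of 1 FPKM, 1 was higher (VAV1, 1.16) and 1 lower (HCST, -1.38) in hatching than in early cells. All genes had 11.3% higher and 16.2% lower. The list's median was -0.18 beside -0.12 for all genes.

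ATP6V0D2 has a close relative in ATP6V0D1, the form of the subunit found in most tissues. ATP6V0D1 had means of 7.15 ± 0.62, 7.30 ± 0.49, 6.94 ± 0.89 and 6.52 ± 1.09 at the early, middle, late and hatching stages, and it stayed above 13 FPKM in every cell, while ATP6V0D2 had 6.74, 5.49, 2.21 and 0.69. ATP6V0A4 and ATP6V1B1, subunits known from acid-secreting epithelia, were also lower in late and hatching cells, but unlike ATP6V0D2 they were not lower in middle than in early cells. ATP6V0A4 had means of 3.71, 4.19, 0.94 and 0.43, and ATP6V1B1 5.43, 6.73, 4.09 and 2.04. Other subunits known from few tissues were scarce at every stage: ATP6V1G3 was at 0 in all 161 cells and ATP6V1C2 was detected in 24. Of 21 subunits at a mean of 1 FPKM, 10 were lower and none higher in hatching than in early cells, beside 16.2% and 11.3% of all genes, with a median of -0.82 beside -0.12; the largest differences were ATP6V1B1 (-3.39), ATP6V0A4 (-3.28), ATP6AP1 (-1.98) and ATP6V1D (-1.80). The list leaves out ATP6V0D2 itself and was written with these levels known.

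**Figure D5:**
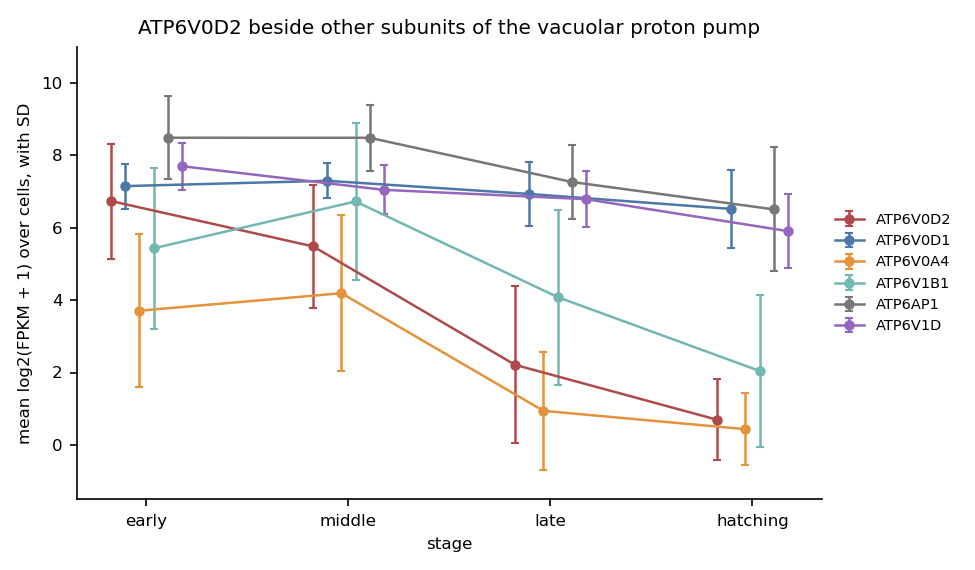
Points give the mean log2(FPKM + 1) over the cells of a stage and bars the SD, for ATP6V0D2 and 5 other subunits of the vacuolar proton pump, from early to hatching. ATP6V0D2, ATP6V0A4 and ATP6V1B1 had means of 0.69, 0.43 and 2.04 in hatching cells, while ATP6V0D1 had 6.52.

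Of 21 lysosomal genes at a mean of 1 FPKM, 14 were lower and none higher in hatching than in early cells, again beside 16.2% and 11.3% of all genes, with a median of -1.16. The lower ones were led by the proteases CTSB (-2.63), CTSL1 (-2.59) and CTSH (-2.41) and the alpha-galactosidase GLA (-2.39). CTSB was at 9.03 in late cells with SOX17 above NANOG and 6.30 in those with NANOG without SOX17, the same direction as MPEG1. The list did not share this direction: 6 of the 21 genes were higher, 2 lower and 13 between in that late contrast. All genes had 9.58% higher and 9.96% lower, and the list's median was 0.05 beside -0.01. Among 11 genes of osteoclasts and cell fusion, 3 were higher and 2 lower in hatching than in early cells. All genes had 11.3% higher and 16.2% lower. The list's median was 0.52 beside -0.12, so the list as a whole was not lower. TFE3 (-2.18) and TFEB (-1.52), factors that drive lysosome formation, were the lower ones, and the 3 higher genes are not named here.

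For SPIC the related lists were the ETS family, haem and iron genes and choline and methionine genes. All of them are given for hatching minus early, where all genes had 11.3% higher, 16.2% lower and a median of -0.12. Of 14 ETS-family and partner genes at a mean of 1 FPKM, 3 were higher and 5 lower in hatching than in early cells, with a median of -0.31. ELF3, an epithelial ETS factor, was at 3.96 and 6.62 in hatching and early cells, and ETV4 ran the other way at 7.07 and 4.47. SPIB, the closest relative beside SPI1, was detected in 1 of 161 cells. Of 12 haem and iron genes, 1 was higher (BLVRA, 3.16) and 3 were lower, with a median of 0.11; TFRC, the receptor that brings iron into cells, was one of the lower genes at -3.03. Within the late stage HMOX2, which breaks down haem, was at 8.16 with SOX17 above NANOG and 3.78 with NANOG without SOX17. Of 8 choline and methionine genes, 2 were lower and none higher, with a median of -0.50, and CHDH, which oxidises choline, differed by -2.23.

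TMEM176B and MPEG1 were nearly alone in their families. Of the 10 MS4A and TMEM176 relatives with a row, 1, MS4A4A, had a mean of 1 FPKM, and it was detected in 23 cells. Of 11 genes with a MACPF domain, MPEG1 was the only one at that mean; PRF1, the perforin of killer lymphocytes, was detected in 9 cells. CD53 was not: 18 of 30 tetraspanins had a mean of 1 FPKM. Of these, 7 were higher and 2 lower in hatching than in early cells, beside 11.3% and 16.2% of all genes. The median was 0.78, beside -0.12. TSPAN4 (3.29), TSPAN7 (-1.82), TSPAN31 (1.67) and TSPAN13 (1.57) differed most.

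Up to 5 genes with patterns most like each of the 6 were taken by Pearson's r among 10825 genes detected in at least 10 cells, first over all 161 cells and then with each stage mean subtracted. Over all cells SPIC was most like PDCL3 (r = 0.85), TMEM176B (0.83), the water and glycerol channel AQP3 (0.79), STOM (0.77) and the placental factor GCM1 (0.76). With stage means subtracted STOM (0.68), GCM1 (0.60), DSC2 (0.58), TUBA1A (0.50) and LRRC25 (0.50) came first. TMEM176B was most like SPIC (0.83), PDCL3 (0.79), CLDN4 (0.77), ATP6V0D2 (0.76) and AQP3 (0.74). With stage means subtracted it was most like SPIC and STOM (0.44 each), NLRP7 and GLUD1 (0.40 each) and GCM1 (0.38). Such an r pools the cells of all stages and need not hold in each. For SPIC and TMEM176B, r was 0.49 (rho 0.15) in early and -0.03 (rho 0.08) in middle cells. It was 0.54 (rho 0.58) in late and 0.33 (rho 0.83) in hatching cells. ATP6V0D2 was most like the tight junction gene CLDN4 (0.79), PDCL3 (0.78), the pluripotency factor ESRRB (0.77), MAP1LC3B2 (0.77) and TMEM176B (0.76). With stage means subtracted it was most like ATP6V0A4 (0.46), CKB (0.44), ESRRB (0.43), SLCO1A2 (0.42) and GPRC5A (0.41). For all 3 genes the highest r was lower with stage means subtracted than over all cells.

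For MPEG1 the highest r was not lower with stage means subtracted. Over all cells its nearest genes were EMP2 and MARCKS (0.74 each), HNF4A (0.73), LAMB1 (0.72) and LAMC1 (0.70). With stage means subtracted they were CDH2 (0.76), NID2 (0.74), EMP2 and MARCKS (0.73 each) and IGF1 (0.72). This r pools all stages, and likeness inside each stage is not given. IGF1 averaged only 0.04 in early and 0.13 in middle cells, against 2.06 in late cells. CDH2 averaged 0.82, 1.70 and 2.87 in the same stages. LAMB1, LAMC1 and NID2 encode basement membrane proteins, CDH2 is N-cadherin and HNF4A is a factor of endoderm-derived epithelia. TYROBP had no close match: FGD1 (0.47), SPIC (0.46), WARS and PABPC1 (0.44 each) were among the nearest over all cells. With stage means subtracted r was at most 0.33, for TMEM101 and MBLAC2. CD53 was similar in this, with MED24 (0.42), PEBP1 (0.41), PGAM1 and IGFBP6 (0.37 each) and PGK1 (0.35) over all cells. MED24 (0.41) came first with stage means subtracted.

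Other cell types that could be caught with inner cells were checked in the same way. Of 20 other blood cell markers with a row, 3 had a mean of 1 FPKM, and KIT, which germ cells and stem cells also use, was detected in 24 of 44 early and 25 of 39 middle cells. Of 12 cumulus and granulosa cell markers, 3 had that mean: CYP11A1, detected in 136 cells and up to 887 FPKM, HSD17B1 and HAS2, while AMH, FOXL2 and FSHR were at 0 in all cells. No oocyte marker of 10 reached a mean of 1 FPKM.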

How the data were processed

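Per the labels' protocols, cDNA of each of 161 inner cells was PCR-amplified and read from both ends over 150 bp. The authors deposited 1 table of FPKM values for 16049 gene symbols. Tools listed without their use, per the submitters' processing notes, are DESeq2, HTSeq, FastQC and TopHat2 2.1.0. Genome build, annotation and use of strand were not given in the sources used. Columns were matched to cells by title, and no pair of cells held identical values.

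From these values means, SDs and differences were computed on log2(FPKM + 1), with 9781 genes at a mean of at least 1 FPKM as the background. Shares of cells have exact Clopper-Pearson 95% intervals. Whole reads were recovered from the steps of low values for 13836 of 13857 genes above 0 in at least 2 cells, whole within 0.01 reads or a relative tolerance of 1e-08, and made up 83.1% to 93.2% of the FPKM of a cell. No test was run, because each stage is 1 sample. The 6 genes and the gene lists were chosen with earlier results of these data known. Of each list the genes with the largest difference are named, and of blood and ITAM lists also those detected in at least 50% of the cells of a stage. One gene that these rules would name is not reported here. A gene was called at 1 log2 unit. The cell titles carry numbers, which were divided within each stage (at 28, 29, 24 and 18 in early, middle, late and hatching cells) to see what moved with them. Alternatives covered the pseudocount, scaling, summary over cells, detection level, the division of cells and leaving out number ranges. Differences, lists and figures were made with Python 3.11.15, pandas 2.3.3, numpy 2.4.6, scipy 1.17.1 and matplotlib 3.10.9, and the calculation was tested on simulated data.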

Additional observations from a re-analysis of the deposited data

How the results depend on the processing

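Of 354 alternative values of the differences of the 6 genes, 333 counted as the same, 17 as moved and 4 as reversed. Reversed values changed the sign of a difference of at least 1 log2 unit and were counted apart, whatever the SD. The 333 moved by less than the SD between cells. Small differences could still change sign among these, as for CD53 in hatching minus early (-1.67 to 1.83) and SPIC in middle minus early (-0.24 to 0.43). SPIC, TMEM176B and ATP6V0D2 stayed at least 1 log2 unit lower in hatching than in early and in late than in middle cells in all 10 alternatives each, as did SPIC in the late SOX17 contrast; MPEG1 in middle minus early did so in 6 of 10 (-1.70 to -0.82), TYROBP in 9 of 10 (1.00 to 5.05) and ATP6V0D2 in 8 of 10 (-2.08 to -0.63). CD53 in late minus middle did so in 8 of 10 (0.78 to 2.86). In hatching minus late the ranges were -3.12 to -0.35 for TMEM176B, -2.51 to -0.63 for ATP6V0D2 and -1.87 to -0.17 for TYROBP. With a pseudocount of 0.1, hatching minus early was -9.06 for SPIC, -8.82 for TMEM176B and -8.09 for ATP6V0D2, and the SOX17 above NANOG difference in hatching cells was 10.35 for MPEG1 and 0.56 for TMEM176B. With a pseudocount of 10, hatching minus early was -3.78, -3.20 and -3.48 for SPIC, TMEM176B and ATP6V0D2, late minus middle was -2.47 for TMEM176B, and the SOX17 above NANOG difference of MPEG1 was 3.41 in late and 5.24 in hatching cells. These shifts follow from how the pseudocount compresses low values. Median-of-ratios scaling gave 8.67 for MPEG1 in hatching cells. Between median cells, TYROBP differed by 5.05 for middle minus early and -5.66 for late minus middle, and MPEG1 by -5.60 for hatching minus late. As the log2 of the mean FPKM, MPEG1 was reversed, at 0.72 for hatching minus early and 0.23 for hatching minus late, late minus middle of SPIC was -2.04 and the hatching SOX17 above NANOG difference of TYROBP was -3.30. Hatching minus late was also reversed for CD53, at 0.25 without the hatching cells with lower title numbers, and for MPEG1, at 0.66 without those with higher numbers; the cause was not tested.

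The SOX17 contrast in hatching cells could not be computed without lower title numbers, which hold every cell with SOX17 above NANOG. Shares of cells moved past their interval in 21 of 48 cases with detection at 0.1 or 5 FPKM. With each stage 1 sample, neither embryo nor batch can be told apart from stage, and no alternative mends this. No paired analysis was possible because the cells of different stages share no embryo or replicate by their labels and no test was run.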

Other observations

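Some genes of the lists also differed between the NANOG and SOX17 ranges of late and hatching cells; the ones given here were chosen after their values were seen. FCER1G, an ITAM adaptor like TYROBP, had a mean of 1.67 in late cells with SOX17 above NANOG and 0.29 in those with NANOG without SOX17, and of 1.74 and 0.07 in the same ranges of hatching cells, although it was detected in only 2 of all 26 hatching cells. Of tetraspanins in late cells, CD81 had means of 3.02 with SOX17 above NANOG and 0.25 with NANOG without SOX17, and CD63 8.50 and 6.76, while CD53 hardly differed. MERTK differed in late cells, at 3.65 with SOX17 above NANOG and 0.92 with NANOG without SOX17, but not in the same direction in hatching cells, at 2.45 and 2.90. In hatching cells KIT was at 4.32 with SOX17 above NANOG and 0.63 with NANOG without SOX17, and SLC40A1, the iron exporter, at 2.97 and 0.00.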
